A study of Rattus norvegicus with 11 samples.

Results

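The Hox gene clusters of the rat carry a small set of microRNA (miRNA) genes, and these are the subject here: miR-10a, miR-10b, miR-196 and miR-615. Members were all sense-strand rows of the deposited table whose name starts with miR-10a, miR-10b, miR-196a, miR-196b, miR-196c or miR-615. This gave 7 mature arms of 4 precursors among 950 rows. They are both arms of miR-10a, miR-10b and miR-615, and the 5p arm of miR-196b. None of the 7 names occurs on more than 1 row.

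Small RNA was sequenced from pancreatic islets, the endocrine cell clusters of the pancreas, of Sprague-Dawley rats at different ages. Adults were male rats 3 months old, with 6 libraries, and P10 animals were pups 10 days old, with 5 libraries. The labels call the animals of both groups control, name no treatment or genetic change, and call the libraries biological replicates without saying whether a library pools several animals. The sex of the pups is not used here, so age and sex cannot be told apart. Library totals ranged from 1432929 to 4483017 counts.

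miRNAs are short RNAs that guide Argonaute proteins to messenger RNAs, mainly through the seed, bases 2 to 8 from the 5′ end. The miR-10 and miR-196 genes sit between the Hox genes, the transcription factor genes that set position along the body axis, and are transcribed together with their neighbours in many tissues. miR-10 and miR-196 are known to target Hox messenger RNAs. In adult mammals miR-10a and miR-10b are abundant in several tissues of the trunk, including cells of the vessel wall and connective tissue.

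In RefSeq's GRCr8 annotation Mir10a lies between Hoxb5 and Hoxb4 on chromosome 10. Mir10b lies within the span of Hoxd4 on chromosome 3. Mir196b lies between Hoxa9 and Hoxa10 on chromosome 4, and Mir615 lies within the spans of Hoxc5 and Hoxc6 on chromosome 7. RefSeq also annotates Mir196a between Hoxc10 and Hoxc9 and Mir196c between Hoxb13 and Hoxb9, and the table analysed here has 0 rows under those names. In the table's own build, Rnor_5.0, miR-10a-5p is at chr10:83968703-83968725 and miR-10b-5p at chr3:68113689-68113710, both on the plus strand.

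The mature sequences below are RefSeq's (GRCr8), which holds 5 of the 7 arms by name. They are shown because the results turn on the near-identity of the 5p arms of miR-10a and miR-10b, and because miR-99b and miR-100 resemble them. Capitals mark the seed.
miR-10a-5p: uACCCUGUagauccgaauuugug
miR-10b-5p: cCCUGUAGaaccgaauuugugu
miR-10a-3p: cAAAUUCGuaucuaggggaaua
miR-10b-3p: aCAGAUUCgauucuaggggaa
miR-196b-5p: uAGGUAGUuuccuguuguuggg
miR-100-5p: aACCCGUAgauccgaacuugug
miR-99b-5p: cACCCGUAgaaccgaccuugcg

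As annotated, miR-10b-5p begins 2 bases further 3′ than miR-10a-5p. In its hairpin the bases just before it are UA, so that a read starting at the same place as miR-10a-5p would be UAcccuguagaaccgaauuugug, with the added bases in capitals. Over these 23 bases the pair differ by 1 substitution, U12A, counted from the 5′ end of miR-10a-5p with its base first. The seeds printed for the pair therefore differ because of the annotated start and not because of a base within the shared stretch. The rows of the table have the annotated lengths, 23 bases for miR-10a-5p and 22 for miR-10b-5p, and give 1 count per arm. They do not show where reads began. How the authors treated reads that match both arms is not given in the sources used here, so the division of reads between the pair is uncertain. The seed of miR-196b-5p is shared with RefSeq's miR-196a-5p and miR-196c-5p. No other mature miRNA of the 693 in the RefSeq table has the annotated seed of miR-10a-5p or of miR-10b-5p.

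The 5p arms of miR-10a and miR-10b held nearly all the counts of the family, and both were lower in adult islets. Together they made up 3.37% ± 1.40 of the counts of an adult library (SD, n = 6) and 14.9% ± 4.74 of those of a P10 library (SD, n = 5). Every adult library, from 1.95% to 5.40%, lay below every P10 library, from 11.1% to 22.7%. For comparison, the endocrine cell miRNA miR-375-3p took 23.7% to 28.4% of an adult library and 10.5% to 19.3% of a P10 library. miR-10b-5p ranked between 9 and 16 by count in the adult libraries and between 1 and 4 in the P10 libraries. In P10 replicate 3 it was the most abundant feature of all, above miR-375-3p. miR-10a-5p ranked between 11 and 13 in adults and between 4 and 7 at P10.

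Levels are given in CPM, the count for every 1000000 counts of a library, scaled by the TMM-adjusted library size. miR-10b-5p was at 8589 CPM in the lowest adult library, 16161 CPM at the adult median and 33703 CPM in the highest adult library. The P10 libraries held 80321, 165089, 75447, 59103 and 64762 CPM (replicates 1, 3, 4, 5 and 6). The groups did not overlap, adult replicate 1 was the highest adult and P10 replicate 3 stood well above the other pups. The adult mean was 18106 ± 9803 CPM (SD, n = 6) and the P10 mean 88945 ± 43387 CPM (SD, n = 5), a 4.91-fold fall. The log2 fold change, adult minus P10, was -2.30 ± 0.37 (SE; edgeR quasi-likelihood test, Benjamini-Hochberg adjusted p = 0.000231).

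For miR-10a-5p the adult libraries ranged from 11955 CPM over a median of 16951 CPM to 31752 CPM. At P10 the values were 46976, 78684, 45058, 36427 and 40978 CPM (replicates 1, 3, 4, 5 and 6). Again the groups did not overlap, although adult replicate 1 came close to P10 replicate 5. The adult mean was 19076 ± 7527 CPM (SD, n = 6) and the P10 mean 49625 ± 16743 CPM (SD, n = 5). The log2 fold change was -1.38 ± 0.26 (SE; edgeR adjusted p = 0.000692), a 2.60-fold fall.

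**Figure D1:**
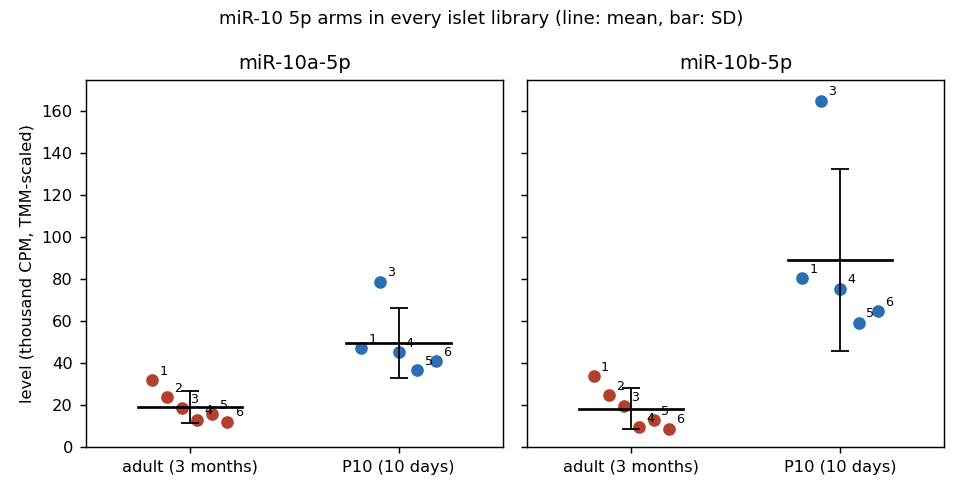
Level of miR-10a-5p (left panel) and miR-10b-5p (right panel) in CPM divided by 1000 on a linear axis, 1 point per library with its replicate number, adults left of P10; lines are means and bars SD (n = 6 adults, n = 5 P10). All adult points lie below all P10 points in both panels, and P10 replicate 3 is highest, at 78684 and 165089 CPM.

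Of the 7 member arms, 3 passed the filter on low counts and were tested, and 2 of these fell in adults while 0 rose. Among all 457 tested features 50.8% were called, 29.5% as lower and 21.2% as higher in adults. With so many features called, a fall by itself does not set the pair apart. Ranges that did not overlap were found for 30% of the tested features, with 16.4% lower in adults, and for 2 of the 3 tested members. The size of the fall was less common: 11.4% of the tested features fell at least as much as miR-10a-5p by fitted log2 change. By the same measure miR-10b-5p ranked 11 among the 457 tested features, counted from the largest fall. Of the 63 features averaging 1000 CPM or more, a level chosen after the values were seen, 60.3% were called and 23.8% fell in adults. Among them none had a larger fall than miR-10b-5p and 4 had a larger fall than miR-10a-5p. The median log2 fold change was -1.38 over the 3 tested members and -0.11 over all tested features. The split of calls moved with the scaling, to 54 higher and 187 lower with library totals alone and 127 higher and 103 lower with upper-quartile scaling, against 97 and 135. Both 5p arms remained lower and called under every scaling tried. Relative to the median of all tested features, the log2 change of miR-10b-5p was between -2.21 and -2.17 over the scalings, and that of miR-10a-5p between -1.29 and -1.26.

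Both arms varied between libraries of 1 age by more than the median abundant miRNA. The SD of log2 CPM within adults was 0.79 for miR-10b-5p and 0.54 for miR-10a-5p, against a median of 0.15 over the features at 1000 CPM or more. Within P10 the SDs were 0.59 and 0.43, against a median of 0.23. None of these 63 features had a larger SD than miR-10b-5p at either age, while 2 in adults and 7 at P10 had a larger SD than miR-10a-5p. The highest adult library held 3.92 times as much miR-10b-5p as the lowest, and the highest P10 library 2.79 times the lowest. For miR-10a-5p these ratios were 2.66 in adults and 2.16 at P10.

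The pair ranked the libraries in the same order. Among adults the order from high to low was replicates 1, 2, 3, 5, 4 and 6 for both arms, and at P10 it was replicates 3, 1, 4, 6 and 5. After each age was centred on its mean, the log2 CPM of the pair had a Pearson r of 0.99 and a Spearman rho of 1 over the 11 libraries. This is given as a description without a p, since the values share a library and its scaling and the pair may share reads.

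Although they moved together, miR-10b-5p fell more than miR-10a-5p by assigned counts. The division of reads between the pair is uncertain (above), so the ratio below is one of assigned counts and not of molecules. The ratio of miR-10b-5p to miR-10a-5p counts, which does not depend on scaling, was 1.06, 1.03, 1.06, 0.724, 0.825 and 0.719 in adults (replicates 1 to 6). At P10 it was 1.71, 2.10, 1.67, 1.62 and 1.58 (replicates 1, 3, 4, 5 and 6). No adult library reached the lowest P10 ratio, and the adults split into 3 libraries slightly above 1 (replicates 1 to 3) and 3 below it (replicates 4 to 6). By a chi-square over the counts of all features, replicates 4 to 6 were the adults most alike. Their pairs had a chi-square per degree of freedom of 11.7 to 23.3, against 44.2 to 167.6 for other adult pairs (larger is less alike at equal depth). That measure includes the counts of the pair itself and grows with library depth, so it is not independent of the ratio. The cause of the split in the ratio was not tested. The adult mean of the log2 ratio was -0.17 ± 0.27 (SD, n = 6) and the P10 mean 0.79 ± 0.16 (SD, n = 5). The difference was -0.96 ± 0.13 on the log2 scale (SE; exact permutation test, two-sided, p = 0.00433, the smallest that 6 and 5 libraries can give). It was the only ratio tested, so its adjusted p is the same. At P10 miR-10b-5p was thus the more abundant of the pair by count in each library.

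**Figure D2:**
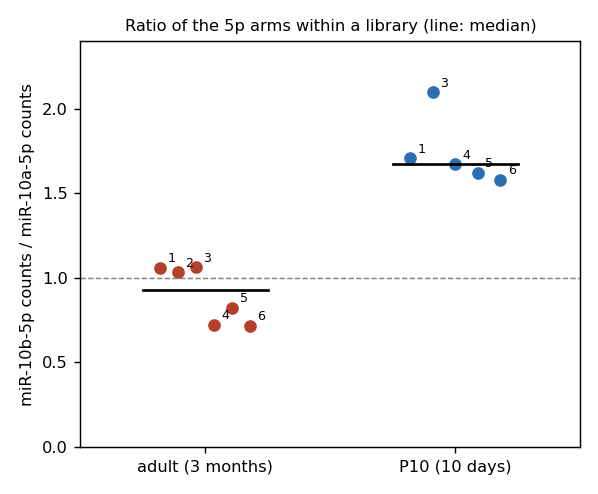
Ratio of miR-10b-5p to miR-10a-5p raw counts within each library (linear axis, dashed line at 1), adults left of P10, 1 point per library with its replicate number and a line at the median. Adult ratios lie between 0.719 and 1.06 and P10 ratios between 1.58 and 2.10, with no overlap.

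The 3p arms, the strands that are usually discarded when the 5p arm is loaded, were scarce at both ages. miR-10a-3p had 4, 10, 8, 0, 15 and 2 counts in adults (replicates 1 to 6) and 10, 11, 24, 11 and 37 counts at P10 (replicates 1, 3, 4, 5 and 6). The groups overlapped, with adult replicates 2 and 5 at or above the lowest pups by count. In CPM, adult replicates 1, 2, 3 and 5 (3.39, 3.82, 5.50 and 5.53 CPM) lay above the lowest pup (3.13 CPM). The adult level of miR-10a-3p was 3.21 ± 2.29 CPM (SD, n = 6) and its P10 level 5.57 ± 2.21 CPM (SD, n = 5). The log2 fold change of -0.72 ± 0.48 (SE) missed the threshold (edgeR adjusted p = 0.228), and its error does not set it apart from the change of the 5p arm.

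miR-10b-3p had 3, 5, 1, 1, 7 and 2 counts in adults (replicates 1 to 6) and 12, 10, 31, 11 and 18 counts at P10 (replicates 1, 3, 4, 5 and 6). It did not pass the filter on low counts and was not tested in the main fit. Its CPM ranges did not overlap, with an adult mean of 1.57 ± 0.887 CPM (SD, n = 6) and a P10 mean of 5.15 ± 2.18 CPM (SD, n = 5). The share of features with non-overlapping ranges was computed over tested features only, so none is given beside this arm. In the fit with no filter the log2 change of miR-10b-3p was -1.55 ± 0.43 (SE; edgeR adjusted p = 0.00890). That fit called 217 of 898 features, 120 as lower and 97 as higher in adults.

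As a share of its precursor's counts, the 3p arm of miR-10a was 0.0185% in the summed adult libraries (39 of its counts; 95% Clopper-Pearson interval 0.0131% to 0.0252%) and 0.0123% in the summed P10 libraries (93 counts; 0.00994% to 0.0151%). For miR-10b the share was 0.00960% in adults (19 counts; 0.00578% to 0.0150%) and 0.00634% at P10 (82 counts; 0.00504% to 0.00787%). For each precursor the share was higher in adults and the intervals of the ages overlapped, which does not show that the shares are equal. The intervals cover counting error only, as reads without molecular identifiers are not independent molecules. No arm ratio was tested, since the 3p arms averaged 6.50 and 3.17 counts in adults, under the minimum of 10.

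miR-615, from the HoxC cluster, was found almost only as its 3p arm and mostly at P10. miR-615-3p (chr7:142420435-142420456, plus strand, Rnor_5.0) had 1, 0, 0, 0, 2 and 2 counts in adults (replicates 1 to 6) and 6, 5, 7, 13 and 7 counts at P10 (replicates 1, 3, 4, 5 and 6). Every P10 library thus held more than any adult library, also in CPM, with an adult mean of 0.434 ± 0.484 CPM (SD, n = 6) and a P10 mean of 2.47 ± 0.996 CPM (SD, n = 5). It did not pass the filter on low counts, and no share of non-overlapping ranges was computed over such features. In the fit with no filter, with 217 of 898 features called, the log2 change was -2.27 ± 0.65 (SE; edgeR adjusted p = 0.0120). That value rests on 5 counts in adults and 38 at P10. miR-615-5p had 1 count in adults and 2 counts at P10 over all libraries.

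miR-196b-5p (chr4:146865935-146865956, minus strand, Rnor_5.0) was at the limit of detection. Adults held 4 counts in all, spread over 3 libraries, and P10 islets held 2 counts in 1 library. A count of 0 allows up to 3 counts, which is 2.09 CPM by library total in the shallowest library and 0.669 CPM in the deepest. No difference between the ages was detectable at this depth for miR-196b-5p or miR-615-5p (edgeR adjusted p = 0.361 and 0.859 in the fit with no filter). At both ages the 5p arms of miR-10 stood far above the other members, which were at a few CPM or less. At P10 the ranges of miR-10a-3p (3.13 to 7.69 CPM), miR-10b-3p (3.13 to 8.18 CPM) and miR-615-3p (1.45 to 3.703 CPM) lay above those of miR-196b-5p (0 to 0.416 CPM) and miR-615-5p (0 to 0.330 CPM), and overlapped among themselves. In adults the ranges of neighbouring scarce arms overlapped.

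**Figure D3:**
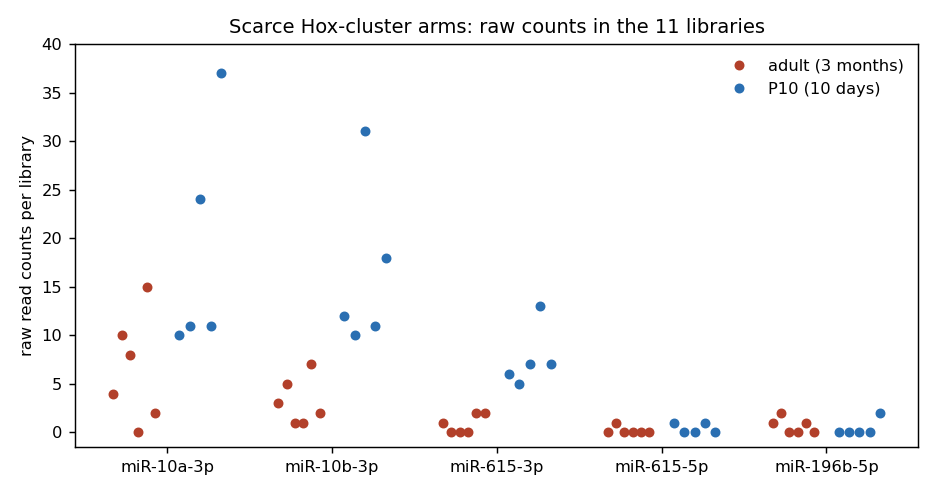
Raw read counts per library (linear axis) of the 5 scarce member arms, adults left of P10 within each arm, 1 point per library. The 3p arms of miR-10a and miR-10b reach 37 and 31 counts at P10, miR-615-3p lies between 5 and 13 counts at P10 and between 0 and 2 in adults, and the other arms have at most 2 counts in a library.

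miR-99 and miR-100 are the closest sequence relatives of miR-10, lie outside the Hox clusters and carry a seed that differs from it. miR-100-5p shares a run of 11 bases with miR-10a-5p. Of the 6 arms of miR-99a, miR-99b and miR-100, 5 were tested, 2 fell and 0 rose, and their log2 fold changes had a median of -0.28. miR-99a-3p had a log2 change of 0.50 ± 0.20 (SE; edgeR adjusted p = 0.0527) and was called higher in adults in 7 of 22 alternatives, upper-quartile scaling among them (0.66, adjusted p = 0.0277). miR-100-5p was at 47.5 CPM in the lowest adult library, 74.1 CPM at the median and 168 CPM in the highest. In the P10 libraries it was at 291, 426, 300, 260 and 262 CPM (replicates 1, 3, 4, 5 and 6). Its groups did not overlap, and the highest libraries were again adult replicate 1 and P10 replicate 3 (log2 fold change -1.84 ± 0.29 SE; edgeR adjusted p = 0.000182). miR-99b-5p fell less, with an adult mean of 9281 ± 811 CPM (SD, n = 6) and a P10 mean of 11740 ± 1900 CPM (SD, n = 5; edgeR adjusted p = 0.0238). That call ended with upper-quartile scaling (edgeR adjusted p = 0.240), with DESeq2's size factors (0.0779), with no filter on low counts (0.0650) and without adult replicate 5 (0.0559), and in DESeq2 (DESeq2 adjusted p = 0.0647). miR-99a-5p was at an adult mean of 828 ± 133 CPM (SD, n = 6) and a P10 mean of 835 ± 143 CPM (SD, n = 5), a log2 change of -0.01 ± 0.14 (SE; edgeR adjusted p = 0.946).

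The features whose levels followed the pair most closely within an age were the same 5 for both arms. Likeness was the Pearson r of age-centred log2 CPM over the 11 libraries, given as a description, since all values share libraries and scaling. For miR-10b-5p the opposite-strand row of miR-3557-5p came first (r = 0.98). miR-362-5p followed (r = 0.95), then miR-145-3p (0.95), miR-100-5p (0.93) and miR-143-3p (0.92). In the 6 adults alone these were 0.98, 0.96, 0.99, 0.93 and 0.97. Between the ages these features changed to different degrees, all with negative log2 changes. miR-100-5p (above) and miR-145-3p fell, the second by a log2 change of -0.98 ± 0.28 (SE; edgeR adjusted p = 0.0104). The opposite-strand row of miR-3557-5p had a log2 change of -0.37 ± 0.12 (SE; edgeR adjusted p = 0.0228), a call that ended with upper-quartile scaling (0.199), with DESeq2's size factors (0.0583), with no filter on low counts (0.0761) and without adult replicate 5 (0.0530) or 6 (0.05001). miR-362-5p, at a few CPM, had one of -0.43 ± 0.31 (SE; edgeR adjusted p = 0.262).

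miR-143, miR-145 and miR-199a are miRNAs of smooth muscle, fibroblasts and other mesenchymal cells, which accompany islets in vessels and capsule. The planned list also named miR-199b and miR-214, which were not analysed here, so the marker list rests on miR-143, miR-145 and miR-199a. All 6 arms of miR-143, miR-145 and miR-199a were tested, 4 fell and 0 rose in adults. The median of their log2 fold changes was -1.11. Their summed level ran from 17172 to 58287 CPM in adults and from 33246 to 61126 CPM at P10, and none of the 6 was at 0 in any library. miR-199a-5p had a log2 change of -2.72 ± 0.29 (SE; edgeR adjusted p = 6.11e-06), with 58.0 to 190 CPM in adults and 528 to 606 CPM at P10. miR-143-3p, the most abundant, overlapped between the ages, with 16849 to 57172 CPM in adults and 30826 to 58740 CPM at P10. It did not pass (log2 change -0.49 ± 0.29 SE; edgeR adjusted p = 0.174), except without adult replicate 1 (-0.79, adjusted p = 0.00957), without both it and P10 replicate 3 (-0.63, adjusted p = 0.0270) or with library totals alone (-0.76, adjusted p = 0.0188). With the mean of the mesenchymal arms as a covariate it passed in the other direction (1.06, edgeR adjusted p = 0.0363). That mean includes miR-143-3p itself, so the value is tied to the covariate by construction and is not read as a rise. In bulk islet RNA, fewer cells of a type and less RNA per cell cannot be told apart.

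The mean log2 CPM of these 6 arms was 8.49, 7.81, 7.24, 6.99, 7.30 and 6.91 in adults (replicates 1 to 6). At P10 it was 8.76, 9.16, 9.03, 8.81 and 8.91 (replicates 1, 3, 4, 5 and 6). The libraries with the highest mean of their age were adult replicate 1 and P10 replicate 3, which were also the highest of their age for both miR-10 5p arms. With this mean as a covariate, neither arm passed. For miR-10b-5p the log2 change became -0.45 ± 0.49 (SE; edgeR adjusted p = 0.611). For miR-10a-5p it became -0.03 ± 0.31 (SE; edgeR adjusted p = 0.953). The covariate correlated with age at -0.87 over the 11 libraries, and only 33 features were called in that fit, so the marker level and age cannot be told apart in these libraries. Without both of these libraries the log2 changes were -2.22 ± 0.29 for miR-10b-5p and -1.35 ± 0.19 for miR-10a-5p (SE; edgeR adjusted p = 0.000152 and 0.000216).

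Adult replicate 1 had the adult marker mean nearest to P10, although below every P10 library. Its miR-143-3p, at 57172 CPM, was above that of 4 of the 5 P10 libraries. Its miR-10b-5p, at 33703 CPM, was below the lowest P10 library (59103 CPM), and so was its ratio of miR-10b-5p to miR-10a-5p, 1.06 against at least 1.58 at P10. Its miR-10a-5p, at 31752 CPM, was below the lowest P10 library but nearer to it (36427 CPM). Its miR-199a-5p was also below the P10 range, at 190 CPM against at least 528 CPM at P10, and so was its miR-199a-3p, at 559 CPM against at least 1170 CPM at P10. Its miR-145-5p, at 257 CPM, was below the P10 range as well (at least 291 CPM). Its miR-145-3p (93.9 CPM) and miR-143-5p (13.5 CPM) lay within the P10 ranges, 78.9 to 165 CPM and 6.27 to 15.1 CPM.

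**Figure D4:**
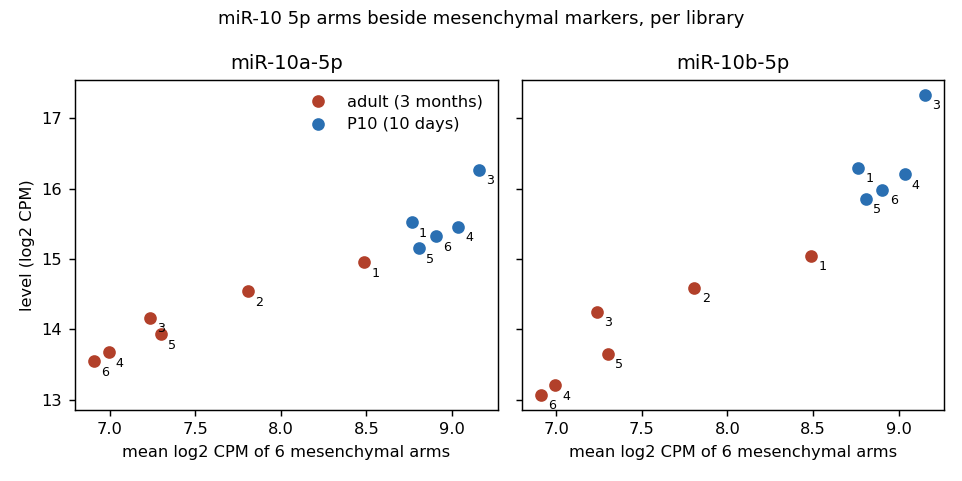
Level of miR-10a-5p (left panel) and miR-10b-5p (right panel) in log2 CPM against the mean log2 CPM of the 6 mesenchymal marker arms, 1 point per library with its replicate number, adults and P10 in different colours. Adult replicate 1 (8.49 on the marker axis) lies closest to the P10 libraries (8.76 to 9.16), and in each age the library with the highest marker level has the most of both arms.

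**Figure D5:**
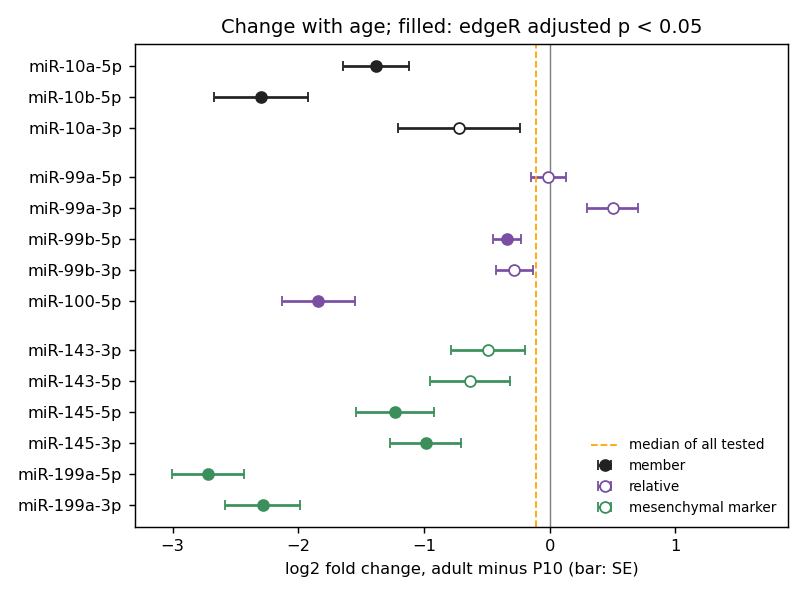
Log2 fold change (adult minus P10) with its SE for the 3 tested members, the 5 tested arms of miR-99 and miR-100, and the 6 mesenchymal marker arms; filled points passed the edgeR test and the dashed line is the median of all tested features. miR-10b-5p (-2.30), miR-100-5p (-1.84) and miR-199a-5p (-2.72) lie farthest to the left in their groups.

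Markers of other cell types are given as counts of tested arms higher and lower in adults, beside 21.2% higher and 29.5% lower among all tested features. Endocrine islet markers had 9 of 18 tested arms higher and 2 lower, with a summed level of 264778 to 337676 CPM in adults and 128274 to 176881 CPM at P10. The endothelial list rested on miR-221 and miR-222, as miR-126 was not analysed here, and had 0 of 3 tested arms higher and 3 lower, with sums of 90.5 to 204 CPM in adults and 216 to 262 CPM at P10. Of the leukocyte arms 0 of 4 were higher and 1 was lower, with sums of 249 to 832 CPM in adults and 681 to 1427 CPM at P10. Acinar arms had 2 of 3 higher and 0 lower, at 28.6 to 127 CPM in adults and 22.2 to 37.7 CPM at P10. None of the erythroid arms (2 tested) or the neuronal and glial arms (4 tested) was called. Their sums were 14.5 to 63.7 CPM in adults and 24.2 to 72.3 CPM at P10 for the erythroid arms, and 113 to 186 CPM in adults and 138 to 166 CPM at P10 for the neuronal and glial arms. The part of these cell types in the levels of miR-10a-5p and miR-10b-5p was not tested.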

How the data were processed

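The deposited values are raw counts, 1 row for each mature arm at each locus. Coordinates are those of Rnor_5.0, per the file headers. The submitters' processing notes name rn5, DESeq and edgeR, without versions. Libraries were made from Trizol-extracted total islet RNA with an Illumina small RNA kit, per the labels' protocols. No aligner, counting rule or annotation is given in the sources used here. Molecular identifiers are not mentioned, so counts are taken as reads. The series table holds the same counts as the 11 per-library tables and has 950 rows. Rows with the same name were reduced to 1 feature by taking the largest count per library, which gave 898 features. Each library counted as 1 replicate, and p-values measure the spread between these libraries.

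With R 4.3.3 and edgeR 4.0.16, features were filtered by filterByExpr with age as group, TMM factors were computed, and a robust quasi-likelihood model of age was fitted to all 457 remaining features. Benjamini-Hochberg adjustment covered all of them, and calls needed an adjusted p under 0.05. The SE is the size of the log2 change over the square root of the F statistic. A prior count of 2 went into log2 CPM, and 0.5 counts were added to both terms of the ratio. The fit and the ratio test were tested on simulated data. RefSeq tables (GRCr8) served for names, neighbours and sequences only.

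The members and the lists were chosen with earlier results of these data known. Named beside the members were the arms of miR-99a, miR-99b and miR-100, mesenchymal markers, miR-375-3p, and the 5 features most like each miR-10 5p arm by age-centred r. Alternatives were other scalings, other filters, limma-voom (limma 3.58.1), DESeq2 1.42.0, a block for the replicate number, rows summed by name, a mesenchymal covariate, and leaving out each library or both P10 replicate 3 and adult replicate 1.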

Additional observations from a re-analysis of the deposited data

Results flagged for a closer look

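P10 replicate 3 lay far from the other P10 libraries in 3 of the 12 groups of values examined for the members. By chance about 1 group in 20 is flagged. The rule was Dixon's Q, the gap to the nearest value over the range, on linear values (0.750 to 0.800, critical value 0.71). The TMM factor of this library was 0.933, against 1.08 to 1.23 in the other P10 libraries, which raises its CPM relative to theirs. Flags can depend on the scale, and log2 levels and unscaled shares were not examined this way. P10 replicate 3 held 165089 CPM of miR-10b-5p, 78684 CPM of miR-10a-5p and a ratio of miR-10b-5p to miR-10a-5p counts of 2.10. These 3 values are not independent, since the ratio is made from the other two. The mean log2 CPM of the mesenchymal arms, 9.16, was also the highest of the P10 libraries there, and its share of miR-375-3p, 10.5%, the lowest. Without this library the log2 changes were -1.96 for miR-10b-5p and -1.16 for miR-10a-5p (edgeR adjusted p = 0.000625 and 0.00190).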

How the results depend on the processing

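miR-10b-5p and miR-10a-5p stayed lower in adults and past the threshold under all 22 alternatives other than the mesenchymal covariate. Their log2 changes ran from -2.56 to -1.96 and from -1.58 to -1.16 when single libraries were left out, and from -2.54 to -2.14 and from -1.63 to -1.22 otherwise. With the mesenchymal covariate they were -0.45 and -0.0333, and 33 features were called (19 higher and 14 lower, against 97 and 135). In that fit miR-143-3p (1.06), miR-145-3p (0.47), miR-145-5p (0.0501) and the opposite-strand row of miR-3557-5p (0.15) changed sign. So did the uncalled miR-10a-3p (0.45), miR-143-5p (0.54), miR-362-5p (0.91) and miR-99a-5p (0.49). The arms of miR-143 and miR-145 are part of the averaged covariate, so their changes given it are tied to it by construction. For the other features the cause was not tested. With library totals alone 54 features were called higher; that scaling shifted the median of all tested features by -0.26, the one without miR-375-3p by -0.19 and upper-quartile scaling by 0.16. miR-10a-3p passed under none of its 20 alternatives other than the covariate.

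Same-numbered libraries of the ages are not said to be paired, and their deviations correlated between -0.21 and 0.20, with 0 of 5 numbers matching best. With the replicate block 205 features were called, and the log2 changes were -2.50 for miR-10b-5p and -1.496 for miR-10a-5p. The ratio of the pair had a log2 difference of -0.998 with the replicate block (exact sign-flip test, p = 0.0625, the smallest that 5 pairs allow). Without single libraries it ran from -1.01 to -0.89.

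For the 14 other named features, 276 of 301 values stayed on their side of the threshold, 10 lost a call and 15 gained one, leaving the covariate aside. Sign changes were limited to 9 values of miR-99a-5p, none of them called. The planned arm ratios were not run, since no precursor averaged 10 counts of its rarer arm in both ages (6.50 in adults and 18.6 at P10 for miR-10a). Depth limits miR-196b-5p, miR-615 and the 3p arms.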
